A study of Mus musculus with 8 samples.

Results

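Grey matter microglia of mice aged 21 months were compared with those of mice aged 4 months. The comparison holds 4 of the 8 libraries of the series, chosen by their sample titles: 2 libraries at each age. All animals were wild type. Brain tissue was dissociated, myelin was taken out with Percoll, cells that carry CD11b were collected with magnetic microbeads, and libraries of polyadenylated RNA were read on an Ion Proton, as the series and sample labels state. The 4 white matter libraries of the same ages enter only where the age change is compared between the regions. The region label of these grey matter samples reads corpus callosum, a white matter tract, so they are called grey matter from their titles and tissue label alone. CD11b is also carried by neutrophils, monocytes and the macrophages of the brain borders. Nothing in the sources used here says that the 2 libraries of an age came from separate animals, so any p-value here reflects only how far these samples differ, which may be technical.

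Microglia are the resident macrophages of the brain parenchyma. At rest they hold a homeostatic programme that includes the purine receptor P2ry12, the surface protein Tmem119 and the fractalkine receptor Cx3cr1. Around amyloid plaques, damaged myelin and in aged white matter, microglia are known to take up a disease-associated programme with Apoe, Itgax, Cst7, Spp1 and other lipid, lysosomal and adhesion genes.

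The libraries held between 3273258 and 6315782 counts. Levels below are given as CPM (counts scaled to a fixed library total), on library sizes scaled by the trimmed mean of M values (TMM). Values are given for the first and the second library of each age, in the numbering of the titles. The markers of the labelled cell type were present in all 4 libraries: Itgam, which encodes CD11b, stood at 1701 and 1725 CPM at 4 months and at 1624 and 2259 CPM at 21 months, and the summed level of the 25 homeostatic genes ran from 23787 to 33232 CPM. Neuronal genes were near the detection limit, with 3 of 12 tested and sums of 19.0 to 45.3 CPM. Xist had 0 to 5 counts and Y-linked genes were read in each library.

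The first 4-month library stood apart from the other 3. Its log2 CPM across genes correlated at 0.869 to 0.876 (Pearson) with theirs, which correlated with each other at 0.950 to 0.962. Red blood cell genes took 2.37% of its counts, against 0.131% in the second 4-month library and 0.293% and 0.0788% in the 21-month libraries. It also held the largest share of 2 very abundant transcripts, AY036118 and CT010467.1, at 20.7%, where the others had 13.3% to 14.1%. Its summed levels of neutrophil, oligodendrocyte, ribosomal and lysosomal genes were the highest of the 4, and its sum of vessel wall genes was the lowest. Values are therefore also given without it, from a fit of 1 library at 4 months against 2 at 21 months, in which the lone library is assumed to vary like the 21-month ones.

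No gene passed the test of age in grey matter. Of 15255 genes tested with edgeR's quasi-likelihood test and Benjamini-Hochberg adjustment, 0 (0%) had an adjusted p under 0.05, and the smallest adjusted p was 0.977. An unadjusted p under 0.05 was reached by 230 genes (1.51%) with a higher level at 21 months and by 189 genes (1.24%) with a lower one. In 2619 genes (17.2%) both 21-month libraries lay above both 4-month libraries, and in 2694 (17.7%) both lay below. These shares are the background against which the gene groups below are read. The fold changes were split evenly, with 7531 genes above 0, 7724 below 0 and a median of -0.0075 on the log2 scale. For the 8887 genes whose mean count was 50 or more, the 95% interval of the log2 fold change reached 0.740 to either side at the median. All adjusted p-values of single genes with the 4 libraries are thus at least 0.977, and none of the genes below is called from this fit unless another fit is named.

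Homeostatic genes were mostly a little lower at 21 months, while disease-associated genes showed no common direction. Of the 25 homeostatic genes, 21 had a log2 fold change below 0, and in 11 (44%) both 21-month libraries lay below both 4-month ones, against the background of 17.7%. The list's median was -0.24 on the log2 scale, and -0.15 without the first 4-month library, with 19 of 25 below 0. None of the 25 reached an unadjusted p of 0.05. Tmem119 stood at 1786 and 1534 CPM at 4 months and at 1001 and 1210 CPM at 21 months. The groups did not overlap, and its log2 fold change was -0.59 (standard error, SE, 0.26, 95% interval -1.21 to 0.04). P2ry12, which senses nucleotides released by injured cells, stood at 2366 and 1874 CPM at 4 months and at 1565 and 1686 CPM at 21 months, a log2 fold change of -0.38 with an SE of 0.27. Trem2, the lipid-sensing receptor that signals through Tyrobp, read 378 and 273 CPM, then 201 and 234 CPM, for -0.58 with an SE of 0.26. It is shown here with the homeostatic genes and is not counted in the disease-associated list, which holds Tyrobp. In P2ry12 and Trem2 too, both 21-month libraries were below both 4-month ones. Cx3cr1 and Csf1r, the receptor on which microglial survival depends, gave -0.21 (SE 0.26) and -0.23 (SE 0.28). Sall1, the transcription factor that holds microglial identity, read 830 and 812 CPM at 4 months and 772 and 918 CPM at 21 months, so the ages overlapped. The siglec Cd33 was the only homeostatic gene with both 21-month libraries above both 4-month ones, at 587 and 647 CPM and then 725 and 758 CPM.

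Of the 30 disease-associated genes, 28 were tested, 12 with a log2 fold change above 0 and 16 below. In 4 (14.3%) both 21-month libraries lay above both 4-month ones, near the background of 17.2%. The median was -0.01, at 0.14 when libraries were scaled by size alone, and at 0.21 without the first 4-month library, when 22 genes were above 0. Those 4 genes were Itgax, Spp1, Axl and Csf1. Itgax, the integrin subunit CD11c, stood at 15.3 and 14.5 CPM at 4 months and at 21.0 and 28.5 CPM at 21 months, a log2 fold change of 0.73 (SE 0.33, 95% interval -0.05 to 1.51). Spp1, the secreted phosphoprotein osteopontin, was read at only 2.88 and 1.96 CPM and then 5.29 and 4.71 CPM. The growth factor Csf1, a ligand of Csf1r, stood at 108 and 127 CPM and then 163 and 148 CPM. Axl, a receptor for dying cells, gave 0.58 with all 4 libraries and 0.17 without the first. Igf1, a trophic factor of the same list, lay the other way, at 13.1 and 8.81 CPM at 4 months and 5.08 and 5.59 CPM at 21 months, a log2 fold change of -1.04 with an SE of 0.47. Apoe, the main lipid carrier of the brain, read 537 and 281 CPM at 4 months and 291 and 261 CPM at 21 months. The first 4-month library was high and the other 3 were alike: the log2 fold change was -0.57 with all 4 libraries and -0.03 without that one. Clec7a, Cst7, Lpl and Tyrobp overlapped between the ages, with log2 fold changes of 0.14 (SE 0.52), 0.46 (SE 0.68), 1.01 (SE 0.67) and -0.36 (SE 0.35).

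**Figure D1:**
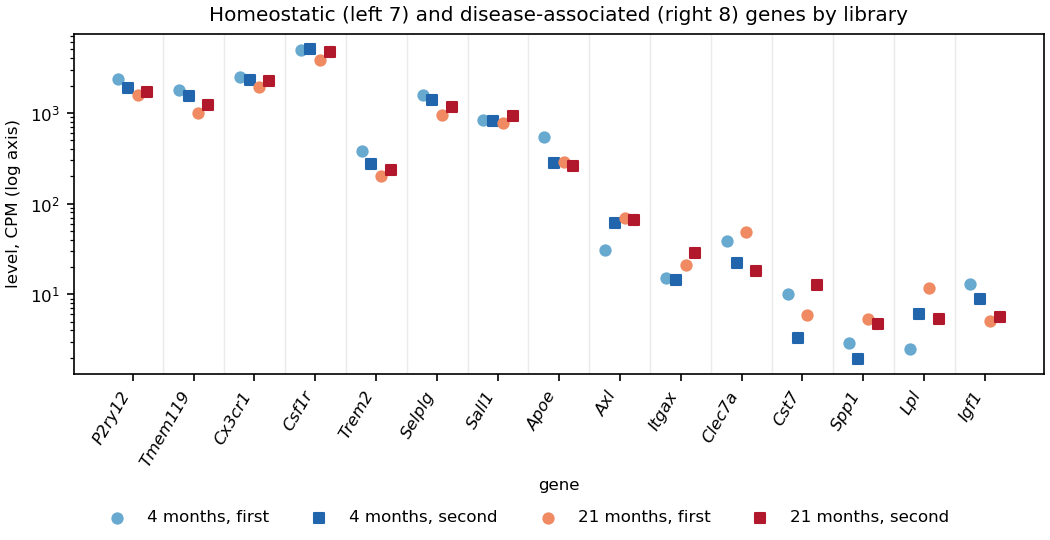
Level in CPM, on a log axis, of 7 homeostatic and 8 disease-associated genes in the 4 grey matter libraries, with blue points for 4 months and orange or red points for 21 months. Both 21-month libraries lie below both 4-month ones for P2ry12, Tmem119 and Trem2, for example. Of the disease-associated genes, Apoe is raised in the first 4-month library alone.

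Interferon-stimulated and antigen presentation genes showed small shifts that lay close to the background. Of 39 tested interferon-stimulated genes, 24 had a log2 fold change above 0 and in 8 (20.5%) both 21-month libraries were higher, with a median of 0.16. Slfn5, an interferon-induced Schlafen protein, had the smallest p of the list, at 28.9 and 31.1 CPM at 4 months and 64.3 and 45.6 CPM at 21 months. Its log2 fold change was 0.87 (SE 0.27, 95% interval 0.22 to 1.53). Ifit3, which blocks viral RNA translation, stood at 3.41 and 4.31 CPM and then 7.20 and 7.06 CPM. Irf9, a transcription factor of the interferon response, lay lower at 21 months in both libraries, with a log2 fold change of -0.56 (SE 0.25). Without the first 4-month library the list's median was 0.32, with 29 of 39 above 0, but it was -0.06 without the second 4-month library and -0.07 without the first 21-month library. Of 18 class I presentation genes 8 were above 0 (median -0.10), and 14 were without the first 4-month library (median 0.15). Of 13 class II genes 7 were above 0 (median 0.01), and 12 were without that library (median 0.18). The class I transactivator Nlrc5 stood at 8.98 and 10.4 CPM at 4 months and at 17.8 and 16.5 CPM at 21 months, and Calr, the chaperone of the class I loading complex, gave -0.62 (SE 0.25). B2m, the class I light chain, gave -0.21 (SE 0.37). The invariant chain Cd74 stood at 1047 and 643 CPM at 4 months and at 1207 and 490 CPM at 21 months, so the 2 libraries of an age differed more than the ages did.

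Of 24 tested cytokine genes, 12 were above 0, with a median of -0.01, but 21 of 25 were above 0 without the first 4-month library, with a median of 0.36. Il1b read 310 and 182 CPM at 4 months and 390 and 230 CPM at 21 months, Tnf 223 and 176 CPM and then 190 and 294 CPM, and the chemokine Ccl3 557 and 488 CPM and then 520 and 540 CPM. The ages overlapped in all 3. Ccl7, a ligand that draws monocytes, had the smallest p of the list, at 10.96 and 4.31 CPM at 4 months and 1.69 and 1.18 CPM at 21 months. Among 27 genes of the NF-kB pathway, 17 lay below 0, and in 8 (29.6%) both 21-month libraries were lower, with a median of -0.16 and of -0.12 without the first 4-month library. Rela, the transactivating subunit, gave -0.58 in that list, and the receptor adaptor Traf1 gave 0.73.

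Several metabolic and housekeeping lists lay below 0 with all 4 libraries and at 0 or above it without the first. Of 37 cathepsin and lysosome genes, 32 were below 0 with a median of -0.27, but the median without the first 4-month library was 0.01. In the same way, complement and Fc receptor genes went from a median of -0.31 to 0.01, respiratory chain subunits from -0.22 to 0.06 and cytosolic ribosomal proteins from -0.16 to 0.26. C1qa, a chain of the complement initiator, read 1054 and 638 CPM at 4 months and 620 and 864 CPM at 21 months. The lysosomal protease Ctsd read 5392 and 3472 CPM and then 2839 and 3651 CPM. In both genes the first 4-month library was the highest. Of 22 iron handling and antioxidant genes, 17 were below 0, and in 9 (40.9%) both 21-month libraries were lower, with a median of -0.24 and of -0.03 without the first. Hmox1, which breaks down haem, stood at 366 and 222 CPM at 4 months and at 178 and 79.5 CPM at 21 months, a log2 fold change of -1.19 (SE 0.45) and of -0.78 without the first library. The transferrin receptor Tfrc, which imports iron, followed the same order at 45.8, 28.4, 22.4 and 12.9 CPM. In the first 4-month library, where both were highest, red cell RNA was highest too, and its part in these values was not tested. Of 22 tested cholesterol and fatty acid synthesis genes, 18 were below 0, with a median of -0.21. In 6 (27.3%) both 21-month libraries were lower, and the median was -0.05 without the first 4-month library. The desaturase Scd1 of this list stood at 15.3 and 15.9 CPM at 4 months and at 8.26 and 8.24 CPM at 21 months. Of 25 tested cell cycle genes, 16 were above 0 (median 0.15), and in 6 (24%) both 21-month libraries were higher. Without the first 4-month library 26 of 31 were above 0 (median 0.53), and without the second 21-month library the median was -0.0029. The proliferation marker Mki67 stood at 49.9 and 60.3 CPM at 4 months and 74.1 and 99.5 CPM at 21 months, and the mitotic kinase Aurkb at 2.16 and 1.96 CPM and then 4.87 and 7.65 CPM. Among other lists, 10 of 20 phagocytic receptor genes, 12 of 19 TGF-beta genes and 8 of 19 lipid handling genes were above 0, and 10 of each were without the first 4-month library. Of 12 monocyte genes 8 were above 0, with a median of 0.13, and all 12 were without that library, with a median of 0.44.

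**Figure D2:**
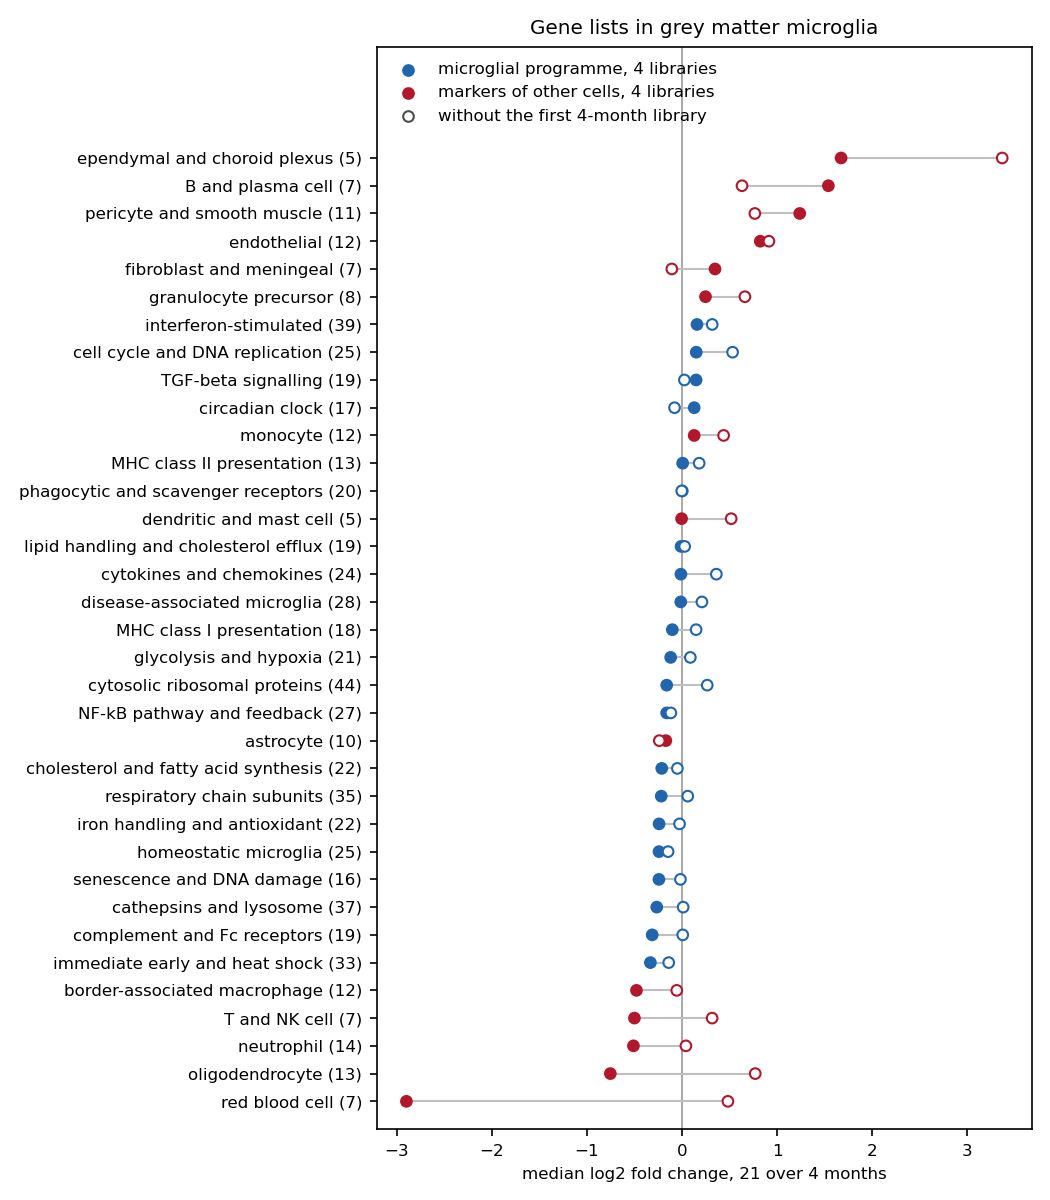
Median log2 fold change of 21 over 4 months for each gene list with at least 5 tested members, with the number tested in parentheses. Filled points use all 4 grey matter libraries and open points leave out the first 4-month library, which moves the red blood cell median from -2.90 to 0.48 and leaves the homeostatic median below 0.

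Heat shock and other chaperone genes, 9 of 10, lay lower in both 21-month libraries than in either 4-month library. They encode proteins that refold or hold unfolded proteins: Hspa1a and Hspa1b are the inducible Hsp70 proteins, Hsph1 and Dnajb1 are their partners, and Hspd1 and Hspe1 form the mitochondrial folding chamber. Many are driven by the factor Hsf1, which binds the heat shock element, here searched as the letters GAANNTTCNNGAA and, on the other strand, TTCNNGAANNTTC. In the RefSeq table of windows from 250 bases before to 50 after each gene's start (GRCm38.p6), 198 of 32851 windows (0.603%) hold it. Of the 10 chaperone genes, 8 are in that table, and the windows of 3 (Hspd1, Hspe1 and Hsph1) hold it. Hspd1 and Hspe1 are transcribed away from each other from a shared region. Whether the match in the Hspd1 window is the stretch shown for Hspe1 is not given here. The stretches below are shown because the genes beside them are members of the group; capitals mark the motif, with 2 overlapping matches over 18 bases in that of Hspe1 (chr1:55088053-55088082, plus strand, bases -89 to -72 from its start) and 1 match in that of Hsph1 (chr5:149636279-149636308, minus strand, 16 to 28 bases after its start). A match is a description of the letters and not evidence of binding.
Hspe1: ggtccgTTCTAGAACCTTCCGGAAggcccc
Hsph1: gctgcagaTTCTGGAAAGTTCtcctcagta

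All 10 chaperone genes had a log2 fold change below 0, with a median of -0.80. In 9 both 21-month libraries lay below both 4-month ones. An unadjusted p under 0.05 was reached by 4. This group was set apart from a list of immediate early and heat shock genes after the values were seen. Its counts are therefore not set against the background. Of the 33 genes of that whole list, 26 were below 0. In 16 (48.5%) both 21-month libraries were lower, where the background is 17.7%. An unadjusted p under 0.05 with a lower level was reached by 5, and by 1.24% of all genes. The whole list's median was -0.33, and -0.14 without the first 4-month library. Hspa1a stood at 1497 and 1132 CPM at 4 months and at 764 and 314 CPM at 21 months. Its log2 fold change was -1.29 (SE 0.45, 95% interval -2.37 to -0.20). Hspa1b, a near-identical neighbour whose reads may be split with Hspa1a, stood at 610 and 448 CPM and then 274 and 101 CPM, for -1.49 with an SE of 0.50. For Hspd1 the levels were 131 and 108 CPM and then 80.8 and 54.1 CPM, and the log2 fold change was -0.82 (SE 0.28, 95% interval -1.48 to -0.17). Its partner Hspe1 gave 24.1 and 16.6 CPM and then 12.5 and 7.06 CPM. Hsph1 stood at 393 and 412 CPM at 4 months and at 299 and 97.7 CPM at 21 months, so most of its difference lay in the second 21-month library. The constitutive Hsc70 gene Hspa8 read 1362 and 1307 CPM and then 999 and 651 CPM, and the endoplasmic reticulum chaperone Hspa5 1328 and 1338 CPM and then 954 and 822 CPM. In these 2 genes the 4-month libraries were within a few percent of each other. Hsp90aa1 and Dnajb1 gave -0.77 (SE 0.36) and -0.78 (SE 0.36). Only the small heat shock protein Hspb1 overlapped between the ages, at 8.62 and 12.5 CPM and then 13.3 and 6.77 CPM.

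The summed level of the 10 chaperone genes was 6544 and 5650 CPM at 4 months and 4173 and 2484 CPM at 21 months. The second 21-month library was the lowest in all 10 genes. The median was -0.71 without the first 4-month library, with all 10 below 0, and -0.97 without the second. The median was -1.29 without the first 21-month library and -0.48 without the second, with 9 of 10 below 0. For the 9 genes that did not overlap between the ages, leaving out 1 library could hardly change the sign. The other 23 genes of the list were immediate early genes, which respond within minutes to stimulation. Of these, 16 were below 0, and in 7 of the 23 both 21-month libraries were lower. This part too was split off after the values were seen, so its counts are not set against the background. The median of these 23 genes, -0.13, became 0.09 without the first 4-month library. Klf4 stood at 946 and 676 CPM at 4 months and 543 and 413 CPM at 21 months, a log2 fold change of -0.76 (SE 0.29). Fos and Jun gave -0.25 (SE 0.27) and -0.38 (SE 0.28), and Egr1, with -0.20, and Zfp36, with 0.06, overlapped between the ages.

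**Figure D3:**
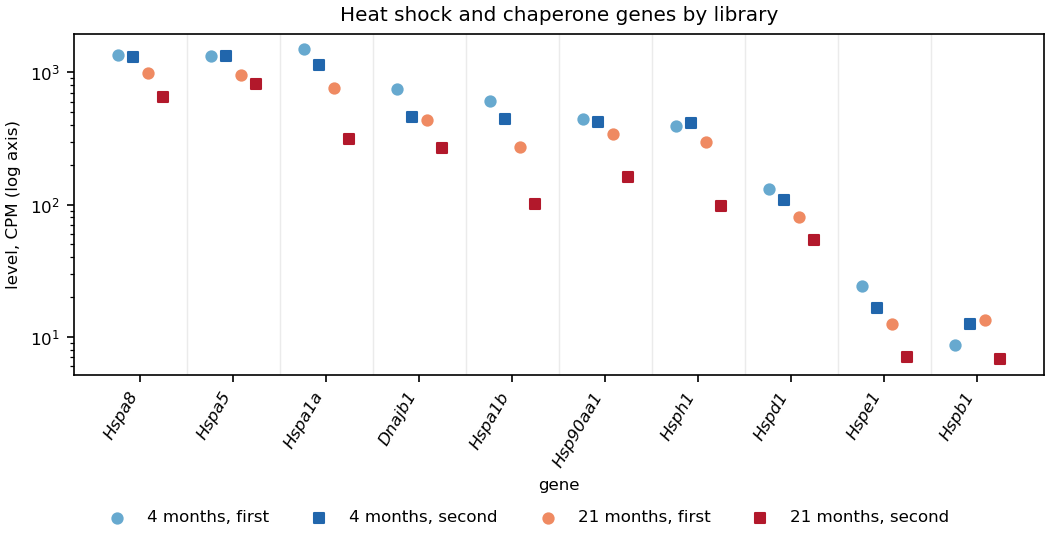
Level in CPM, on a log axis, of the 10 chaperone genes in the 4 grey matter libraries. Both 21-month libraries lie below both 4-month libraries for 9 genes, the exception is Hspb1, and the second 21-month library is the lowest throughout.

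Pericyte genes and most endothelial genes lay higher at 21 months. Pericytes wrap brain capillaries, and endothelial cells line them. All 7 pericyte genes (Rgs5, Vtn, Pdgfrb, Abcc9, Kcnj8, Cspg4 and Higd1b) were higher in both 21-month libraries than in both 4-month ones. Their median log2 fold change was 1.63, and 1.15 without the first 4-month library. They were separated from smooth muscle genes after the values were seen, so 7 of 7 is not set against the background. In the unsplit list, 7 of 11 genes (63.6%) were higher in both 21-month libraries, against 17.2% of all genes. The unsplit list's median was 1.24, and 0.76 without the first 4-month library. The summed level of the 7 pericyte genes was 145 and 618 CPM at 4 months and 906 and 1036 CPM at 21 months. Vtn, the matrix protein vitronectin, stood at 40.8 and 75.1 CPM at 4 months and at 167 and 208 CPM at 21 months, a log2 fold change of 1.70 (SE 0.34, 95% interval 0.88 to 2.51) and of 1.32 without the first library. Abcc9 and Kcnj8 encode the parts of 1 potassium channel. Abcc9 read 13.7 and 51.5 CPM and then 116 and 114 CPM, and Kcnj8 5.75 and 10.96 CPM and then 22.4 and 29.4 CPM. Both were higher at 21 months in each library. Rgs5 read 65.6 CPM in the first 4-month library, 402 CPM in the second, and 474 and 554 CPM at 21 months, so its gap was mainly between that first library and the rest. The 4 smooth muscle genes overlapped between the ages. Acta2, a contractile actin, stood at 5.57 and 153 CPM and then 116 and 154 CPM, and the median of these 4 genes was 0.75 with all libraries and -0.03 without the first.

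Of 12 tested endothelial genes, 11 had a log2 fold change above 0, and in 8 (66.7%) both 21-month libraries were higher, with a median of 0.82. Without the first 4-month library the median was 0.91, but 9 genes were above 0 and 4 below. Levels were low. Vwf, the clotting factor carrier, read 1.08 and 1.37 CPM at 4 months and 4.23 and 10.004 CPM at 21 months, and the tight junction gene Cldn5 0.359 and 0.196 CPM and then 2.33 and 5.30 CPM. Flt1, a receptor for vascular growth factor, stood at 2.34 and 19.96 CPM and then 42.8 and 40.02 CPM. Pecam1, also found on blood leukocytes, overlapped between the ages, at 22.3 and 20.2 CPM and then 18.8 and 20.3 CPM. The summed endothelial level was 61.1 and 92.0 CPM at 4 months and 135 and 137 CPM at 21 months. In such bulk libraries, a difference in the number of cells of a type and a difference in RNA per cell cannot be told apart.

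The fold changes of choroid plexus genes depended on which 4-month library was used. Ttr, the thyroxine carrier that this epithelium secretes, stood at 176 and 18.8 CPM at 4 months and at 366 and 256 CPM at 21 months. Enpp2, the enzyme autotaxin, stood at 50.5 and 10.96 CPM and then 116 and 110.3 CPM. The 4-month libraries differed from each other several-fold in both genes. Of the 12 ependymal and choroid plexus genes, only 5 were tested and Tmem212 and Dynlrb2 had no count in any of the 4 libraries. The median of those tested was 1.67 with all 4 libraries and 3.37 without the first.

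Antibody genes were also higher at 21 months in part. Igha, the heavy chain of immunoglobulin A, stood at 0.359 and 5.28 CPM at 4 months and at 26.2 and 39.7 CPM at 21 months, a log2 fold change of 3.55 (SE 1.00, 95% interval 1.00 to 6.10). The kappa light chain Igkc stood at 10.4 and 61.4 CPM and then 184 and 91.2 CPM. Jchain, which joins secreted antibodies, had no count in the first 4-month library, 3.33 CPM in the second, and 4.66 and 5.002 CPM at 21 months. Ighm, the heavy chain of immunoglobulin M, overlapped at 497 and 378 CPM and then 377 and 453 CPM. Ighg2c was read in 1 library of each age. The B cell receptor genes Cd79a and Cd79b gave -0.96 (SE 1.29) and -0.71 (SE 0.64), and overlapped between the ages.

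**Figure D4:**
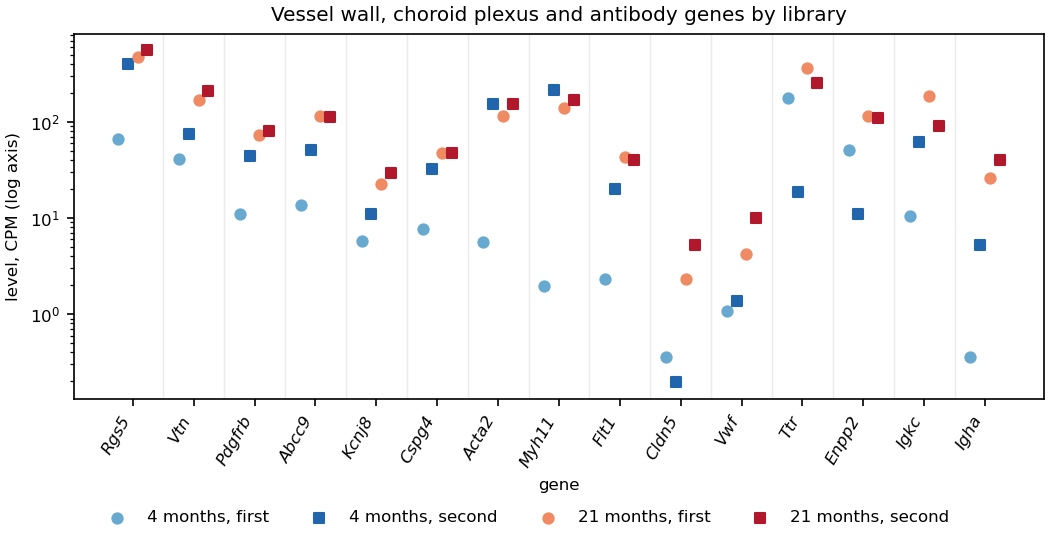
Level in CPM, on a log axis, of vessel wall, choroid plexus and antibody genes in the 4 grey matter libraries. For Vtn, Abcc9 and Kcnj8 both 21-month libraries lie above both 4-month ones, while for Acta2 and Myh11 only the first 4-month library is low and for Ttr and Enpp2 the 4-month libraries lie far apart.

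Markers of the macrophages of the brain borders, of neutrophils and of oligodendrocytes lay below 0. Of 12 border macrophage genes 10 were below 0, and in 5 (41.7%) both 21-month libraries were lower. These 5 (Lyve1, Pf4, Cd163, Cbr2 and Mrc1) had an unadjusted p under 0.05. Of all genes, 17.7% were lower in both libraries, and 1.24% had such a p with a lower level. The haemoglobin scavenger receptor Cd163 stood at 17.1 and 18.0 CPM at 4 months and at 8.04 and 6.47 CPM at 21 months, a log2 fold change of -1.26 (SE 0.37, 95% interval -2.16 to -0.37). It was -1.30 without the first 4-month library. Lyve1, the hyaluronan receptor of perivascular macrophages, stood at 28.7 and 17.6 CPM and then 5.93 and 0.588 CPM, and the chemokine Pf4 at 50.8 and 17.0 CPM and then 9.31 and 9.12 CPM. The mannose receptor Mrc1 gave 142 and 96.1 CPM and then 84.2 and 55.0 CPM. The whole list summed to 1074 and 988 CPM at 4 months and 866 and 945 CPM at 21 months, and its median of -0.48 became -0.06 without the first 4-month library, with 6 of 12 below 0. Neutrophil genes were below 0 in 14 of 14, with a median of -0.51. Only 2 of them (14.3%) did not overlap between the ages, near the background of 17.7%. Without the first 4-month library 8 lay above 0 and 6 below. S100a8, a calcium-binding protein of neutrophil granules, read 555 CPM in that library and 237, 234 and 212 CPM in the others. Oligodendrocyte genes went from 12 of 13 below 0 (median -0.75) to 11 above and 2 below (median 0.77). Red blood cell genes were below 0 in 7 of 7, with sums of 26876 and 1281 CPM at 4 months and 2822 and 759 CPM at 21 months. Haemoglobin genes thus overlapped between the ages, and the first 4-month library alone was high.

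By the rule for named genes, the 10 genes with the smallest unadjusted p among those higher at 21 months included Dlg5, Ildr2, Prg2, Vtn, Fblim1, Art3, Zc3h6, Afdn and Kcnj8. Ildr2, a membrane protein of the immunoglobulin family, stood at 14.2 and 32.9 CPM at 4 months and at 99.7 and 118 CPM at 21 months. Its log2 fold change was 2.21 (SE 0.41, 95% interval 1.21 to 3.21). DESeq2, run as an alternative, called Ildr2 alone, with a log2 fold change of 2.20 (SE 0.43) and a Benjamini-Hochberg adjusted p of 0.0107. The junction scaffold gene Dlg5 stood at 4.49 and 7.24 CPM and then 32.4 and 21.8 CPM, also a log2 fold change of 2.21 with an SE of 0.42. Prg2, the major basic protein of eosinophils, stood at 1.44 and 4.11 CPM and then 17.6 and 29.1 CPM, for 3.07 (SE 0.59). The eosinophil peroxidase gene Epx had no count in the first 4-month library, 1.17 CPM in the second, and 2.12 and 5.59 CPM at 21 months. Fblim1, an adaptor of the actin cytoskeleton at adhesion sites, stood at 23.5 and 25.4 CPM at 4 months and at 52.5 and 47.4 CPM at 21 months, a log2 fold change of 1.03 with an SE of 0.25. The adhesion gene Afdn gave 1.29 (SE 0.32), Art3 2.28 (SE 0.56) and Zc3h6 1.75 (SE 0.43). Without the first 4-month library the values of these 10 genes ran from 0.97 to 2.48. The rule takes only genes whose ages do not overlap, so leaving out 1 library could hardly change the sign.

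On the other side the rule gave Ppp1r11, Plppr4, Calr-ps, Hnmt, Anp32-ps, Rpain, B3galt6, P4ha1, Alg8 and Cd163. Ppp1r11, an inhibitor of protein phosphatase 1, stood at 50.5 and 47.0 CPM at 4 months and at 21.2 and 19.7 CPM at 21 months. The libraries of an age were close to each other, and the log2 fold change was -1.25 (SE 0.26, 95% interval -1.87 to -0.63). Plppr4, a membrane protein known from neurons, stood at 12.8 and 10.2 CPM and then 1.69 and 2.35 CPM, for -2.50 (SE 0.53). Hnmt, which inactivates histamine, read 31.4 and 20.9 CPM and then 9.74 and 9.42 CPM. P4ha1, a subunit of the collagen prolyl hydroxylase, gave the smallest difference of the 10, at 143 and 146 CPM and then 85.7 and 87.1 CPM, a log2 fold change of -0.74 (SE 0.21). Rpain, B3galt6 and Alg8 gave -1.28 (SE 0.33), -1.99 (SE 0.55) and -1.01 (SE 0.29). Calr-ps and Anp32-ps are pseudogene names, and their reads cannot be assigned apart from their parent genes. Values of the 10 without the first 4-month library ran from -2.34 to -0.63, where the rule again left little room for a change of sign.

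Without the first 4-month library, 8 genes passed edgeR's quasi-likelihood test at a Benjamini-Hochberg adjusted p under 0.05, 6 of them higher at 21 months and 2 lower. The common dispersion was 0.0334 in that fit and 0.129 with all 4 libraries. Higher were Ttr (log2 fold change 4.05), Enpp2 (3.37), Pde2a (2.23), Ildr2 (1.72), Col6a3 (1.63) and the predicted gene Gm20417 (4.86), with adjusted p-values from 4.7e-05 to 0.0184 in edgeR's test. Lower was Apod, a lipocalin of meningeal and glial cells, with -2.31. It stood at 62.5 CPM in the library left out, 172 CPM in the second 4-month library, and 27.7 and 42.4 CPM at 21 months. The neuropeptide gene Npy was the other one, with 72 counts in the second 4-month library and 0 counts in the other 3, the first 4-month library among them. For Ttr, Enpp2, Pde2a and Gm20417 the library left out lay between the second 4-month library and the 21-month ones on the CPM scale. Pde2a, for example, stood at 32.7 CPM in the library left out, 13.3 CPM in the second, and 67.9 and 56.8 CPM at 21 months. For Ildr2 and Col6a3 the library left out was the lowest of the 4. When the second 4-month library was left out in its place, 2216 genes passed, 1541 higher and 675 lower, so the number of calls rested on which 4-month library stood for its age.

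The age change of disease-associated genes was compared with that in white matter, which shares no library with it. With all 8 libraries, 0 of 16237 genes (0%) passed edgeR's quasi-likelihood test of the difference at an adjusted p under 0.05 and 455 (2.8%) had an unadjusted p under 0.05. In this fit 28 of 30 disease-associated genes had a difference (grey minus white, log2 scale) below 0, 13 of the 30 with an unadjusted p under 0.05, and the median difference was -1.96. The 5 genes with the smallest p were Apoe, Itgax, Pld3, Sh3pxd2b and St18. The first 4-month white matter library stands apart from its group, so values are given for the other 7 libraries, where 0 of 17509 genes (0%) passed and 507 (2.9%) had an unadjusted p under 0.05. Without that library the difference was below 0 for 30 of 30 disease-associated genes, 19 of them with an unadjusted p under 0.05. The list was chosen with earlier results of these data known, which limits what such counts can show. The median change of these genes was -0.02 in grey matter and 1.75 in white matter. Their median difference was -1.43, where the median of all genes was -0.03. Other lists were shifted the same way: 42 of 44 ribosomal genes were below 0 (median -0.73) and 36 of 39 interferon-stimulated genes (median -0.62). So were 17 of 19 complement and Fc receptor genes (median -0.75). Some lists lay the other way, such as neutrophil genes (2 of 14 below 0, median 0.83) and TGF-beta genes (7 of 19, median 0.14). The first 4-month grey matter library stays in this fit. With only 1 white matter library at 4 months, that library's own deviation enters each of these differences.

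Apoe had a log2 change of -0.58 in grey and 2.92 in white matter, a difference of -3.50 (SE 0.59, 95% interval -4.84 to -2.16). For Igf1 the changes were -1.05 and 2.04, with a difference of -3.09 (SE 0.50), so that the signs were opposite in these 2 genes. The grey matter fall of Apoe rested on the first 4-month grey matter library, which stays in this fit. Without that library the grey matter change of Apoe was near 0, as given above. Apoe and Igf1 were not the only genes of the list below 0 in grey matter, where 16 of 28 were with its 4 libraries alone. Itgax and Spp1 were above 0 in both regions, at 0.72 and 3.65 for Itgax and 1.03 and 3.83 for Spp1, with differences of -2.93 (SE 0.45) and -2.80 (SE 0.46). With all 8 libraries the differences were -3.48 for Apoe, -3.95 for Igf1, -3.54 for Itgax and -3.64 for Spp1. None of these differences passed adjustment in edgeR's fits of 7 or 8 libraries. Other fits, given below, did call genes for the region difference. Of the homeostatic genes, 15 of 25 had a difference below 0 with 7 libraries, with a median of -0.09. With all 8 libraries 24 of 25 were below 0 and the median was -0.75, with a white matter median of 0.59, so this result rested on the first 4-month white matter library. With 7 libraries the difference was 0.08 for P2ry12 (95% interval -0.79 to 0.95) and -0.14 for Tmem119 (95% interval -0.996 to 0.717), and with all 8 it was -0.59 (SE 0.90) and -0.86 (SE 0.94). The chaperone gene Hspa1a gave -1.30 in grey and -1.15 in white matter with 7 libraries, a difference of -0.14 with a 95% interval from -2.15 to 1.86, which is too wide to say whether the regions differ. With all 8 libraries that difference was -0.72 (SE 0.99).

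**Figure D5:**
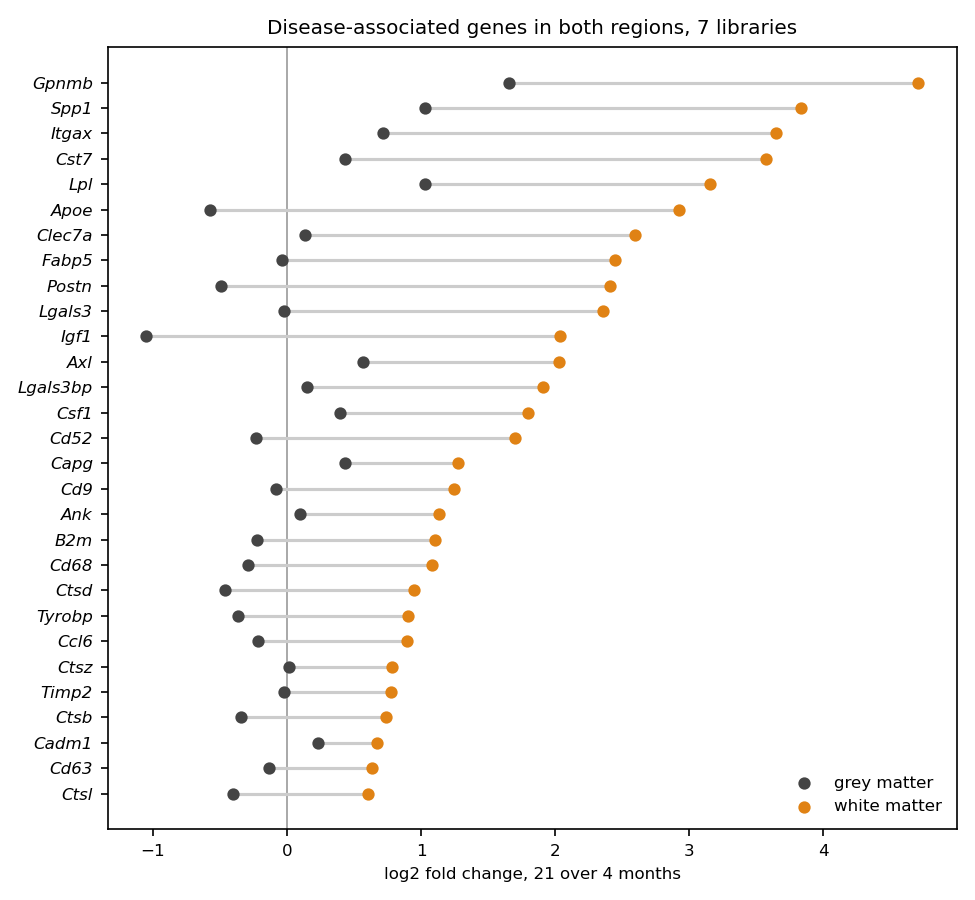
Log2 fold change of 21 over 4 months in grey matter (dark points) and white matter (orange points) for 29 disease-associated genes, from the fit of 7 libraries; Ch25h, which had no count in the 4-month white matter library, is not drawn. The white matter point lies to the right of the grey matter point for each gene, and Apoe and Igf1 lie on opposite sides of 0. The fit keeps the first 4-month grey matter library, on which the grey matter fall of Apoe rests.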

How the data were processed

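Each library's estimated counts, as deposited by the authors, were used after rounding (17.9% to 19.7% of values above 0 were not whole). The authors' normalised signal, deposited beside them, served 1 alternative. Partek and DESeq2 are named, with no role or version, per the submitters' processing notes. Which aligner, build, annotation and strand setting were used is not given in the sources used here. Thus overlapping, antisense and near-identical genes cannot be told apart. Of 51810 genes, 21907 had no count in the 4 libraries. Genes were filtered with filterByExpr, scaled by TMM and fitted with edgeR 4.0.16 (robust quasi-likelihood, R 4.3.3) to the 4 grey matter libraries alone, with 2 residual degrees of freedom and Benjamini-Hochberg adjustment over all 15255 genes tested. Standard errors were derived from the F statistic. The age by region difference was fitted to all 8 libraries and, as an alternative, to 7. The procedure was tested on simulated data.

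The members and the 38 gene lists (21 microglial programmes and 17 of other cells) were chosen with earlier results of these data known. By rule, the text names 10 genes per direction with the smallest unadjusted p, at least 50 counts on average in the higher group and no overlap between ages, leaving out predicted models. It also draws on up to 3 members of each list and a set of known microglial genes. Other members were chosen after their values were seen, and some genes the rule gives are not reported here. Alternatives were DESeq2 1.42.0, limma 3.58.1 (with voom, and on log2 of the normalised values plus 1), RLE and library-size scaling, other count filters, a replicate block, other sets of libraries, and removal of red blood cell genes and the 2 largest transcripts. Replicate numbers appear in the titles, but nothing ties equal numbers to 1 animal or day. Sequences are from RefSeq, GRCm38.p6.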

Additional observations from a re-analysis of the deposited data

How the results depend on the processing

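In grey matter, 0 genes were called with all 4 libraries, 1 with DESeq2, 39 with no filter on low counts (25 higher, 14 lower), and between 0 and 2216 when 1 library was left out: 8 without the first 4-month library, 2216 without the second, and 0 without either 21-month library. RLE or library-size scaling, a mean count of at least 50, both limma fits, removal of red blood cell genes with the 2 largest transcripts, and fits of 7 or 8 libraries called 0. For the age by region difference, 0 genes were called with edgeR, 39 with DESeq2, 470 with no filter, and between 0 and 2422 when 1 library was left out, with 2422 when the white matter library left out was the second at 4 months. The cause was not tested. With the replicate number as a block, 0 genes were called in either comparison, and the equal-numbered grey matter libraries deviated with a correlation of -0.104 over 15255 genes. With the numbers crossed, an alternative chosen after seeing the data, 0 genes were called and 437 had an unadjusted p under 0.05, against 349 with the block and 419 with none. Scaling by library size alone moved the median of all genes to 0.12 on the log2 scale, and 32 of 38 list medians then had the sign given above; class I presentation, cytokine, disease-associated, glycolysis and lipid handling genes were among the 6 that did not. Without the first 4-month library 20 of 38 had it, and 118 of 137 named genes.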

Other observations

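Some gene classes outside the lists were looked at by name. Of 19 tested collagen genes, 17 had a log2 fold change above 0, and in 6 (31.6%) both 21-month libraries lay above both 4-month ones, where 17.2% of all genes did. Their sum was 251 CPM in the first 4-month library, 512 CPM in the second, and 529 and 497 CPM at 21 months, so the first 4-month library alone was low. Col6a3, a chain of microfibrillar collagen, stood at 5.93 and 24.7 CPM at 4 months and at 76.8 and 76.2 CPM at 21 months. Of 269 tested genes with pseudogene names ending in -ps, 208 lay below 0, and in 59 (21.9%) both 21-month libraries were lower. Their sum was 13540 CPM in the first 4-month library and 7942 to 9157 CPM in the others. Variable segments of immunoglobulins, 346 in the table of which 2 were tested, summed to 9.16 and 40.5 CPM at 4 months and to 149 and 62.4 CPM at 21 months, the same order over the libraries as Igkc.

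Among circadian clock genes, 12 of 17 lay above 0, with Rora, a nuclear receptor that drives Bmal1, at 13.7 and 17.8 CPM at 4 months and 24.3 and 28.2 CPM at 21 months. The median of 0.13 became -0.08 without the first 4-month library. Of 16 senescence and DNA damage genes, 14 lay below 0, and in 7 (43.8%) both 21-month libraries were lower, with a median of -0.24 and of -0.02 without the first 4-month library. The cell cycle inhibitor Cdkn1a read 364 and 181 CPM at 4 months and 256 and 204 CPM at 21 months. Cdkn2a, often used as a marker of senescent cells, had no count in any of the 4 libraries, and the stress-induced gene Sesn2 stood at 59.8 and 37.0 CPM at 4 months and at 32.4 and 20.9 CPM at 21 months.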
